A study of Rattus norvegicus with 24 samples.

Results

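The potassium channel genes of the rat retina were followed through streptozotocin diabetes with whole genome microarrays. The members are all array probes whose RefSeq accession maps to a gene symbol beginning with Kcn, apart from 1 gene. By this rule, which uses names and no measured value, 78 of the 33849 rat probes were members, and they represent 59 genes. The arrays hold whole retinas of male Sprague Dawley rats that received streptozotocin (STZ), a toxin of the insulin-producing beta cells, or vehicle alone (Control). Retinas were taken 1 or 3 months after the injection, which gives 4 groups of 6 arrays, Control and STZ at each time. According to the study's methods, only STZ rats with raised blood glucose were kept and no insulin was given. The labels do not say whether each array holds a different rat, and the study's animal data list fewer rats than the 6 arrays for the 1 month controls, so the p-values measure only the spread between arrays. In whole retina, fewer cells of a type and less RNA per cell cannot be told apart.

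Potassium channels set the resting potential of a cell, end its action potentials and shape its light response. The voltage-gated (Kv) channels open on depolarisation, the inward rectifiers and the K2P leak channels hold the resting potential, and the calcium-activated channels couple potassium efflux to calcium entry. Beta subunits such as those of the Kcne family do not form a pore themselves but change the gating and traffic of the pore-forming subunits. In the retina these channels are spread over photoreceptors, inner retinal neurons, glia and the pigment epithelium.

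Levels are given as scaled intensity, the background-subtracted brightness of a probe divided by the median of all rat probes on that array, so that 1 is the brightness of the median probe. A probe was tested if its median over the 24 arrays exceeded 0.554, the 35th percentile of those medians, which left 49 member probes for 41 genes among 22025 tested probes. The other 18 genes, which include Kcna3, Kcna4, Kcnd2, Kcne1, Kcnj1, Kcnj9, Kcnq1 and Kcns1, had no tested probe. A probe was called changed when the limma p-value, adjusted over all tested probes by the Benjamini-Hochberg method, was under 0.05 and the change was at least 1.2-fold. The array carries 62 probes for bacterial genes, and their 95th percentile on an array (the bacterial limit) served as a stricter measure of background. That limit ran from 0.632 to 1.18 on the 1 month arrays and from 1.16 to 1.72 on the 3 month arrays. The interquartile range of log2 intensity had a median of 3.47 in both 1 month groups, 1.81 in the 3 month controls and 2.50 in the 3 month STZ group. Dim and bright probes therefore lay closer together at 3 months, least so in the STZ arrays, and the time points cannot be told apart from the array runs. The 3 month control array 2 stood apart, with a median correlation of 0.802 with its group, against 0.947 or more for the other 5. The rod gene Prph2 (58.1 to 175 over all arrays) was far above the array median throughout, as the tissue label implies.

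In control retina, 28 of the 59 genes were above the bacterial limit on at least 5 of 6 arrays at 1 month, and 14 were at 3 months. In probes this was 43.6% and 19.2% of the members, against 48.3% and 34.0% of all rat probes on the array. All 14 were among the 28, and no gene passed at 3 months alone. They included the voltage-gated Kcna1, Kcna2, Kcna5, Kcnc1 and Kcnd3, the ether-a-go-go channels Kcnh4 and Kcnh6, the inward rectifiers Kcnj5 and Kcnj14, the leak channels Kcnk1 and Kcnk3, the beta subunit Kcne2 and the channel-interacting protein Kcnip1. Kcnc1, a fast delayed rectifier of rapidly firing cells, read between 13.0 and 23.3 at 1 month and between 5.58 and 15.1 at 3 months. Kcnj14, an inward rectifier, read between 15.5 and 18.3 at 1 month and between 8.95 and 18.3 at 3 months. Both were more than 5-fold above the array median on every control array.

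A further 14 genes were above the bacterial limit in the 1 month controls alone, and these were Kcnb2, Kcnh3, Kcnh7, Kcnh8, Kcnj11, Kcnj13, Kcnk2, Kcnma1, Kcnn1, Kcnn2, Kcnn3, Kcnn4, Kcns3 and Kcnv1. For Kcnh8 the median scaled intensity was 5.65 in the 1 month controls and 0.933 in the 3 month controls. The calcium-activated class held 5 of its 8 genes above the bacterial limit at 1 month and none at 3 months. The other 31 genes did not pass in either control group. With the limit of 0.554 in place of the bacterial limit, 38 genes passed at 1 month and 44 at 3 months. At 3 months that limit is no measure of background, because the median of the bacterial probes itself ran from 0.586 to 0.750 on the control arrays. Kcna3, a Kv1 channel of T cells and microglia, shows this: its probe read between 0.0242 and 0.115 in the 1 month controls and between 0.680 and 1.52 in the 3 month controls, and it exceeded the bacterial limit on 1 of the 12.

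**Figure D1:**
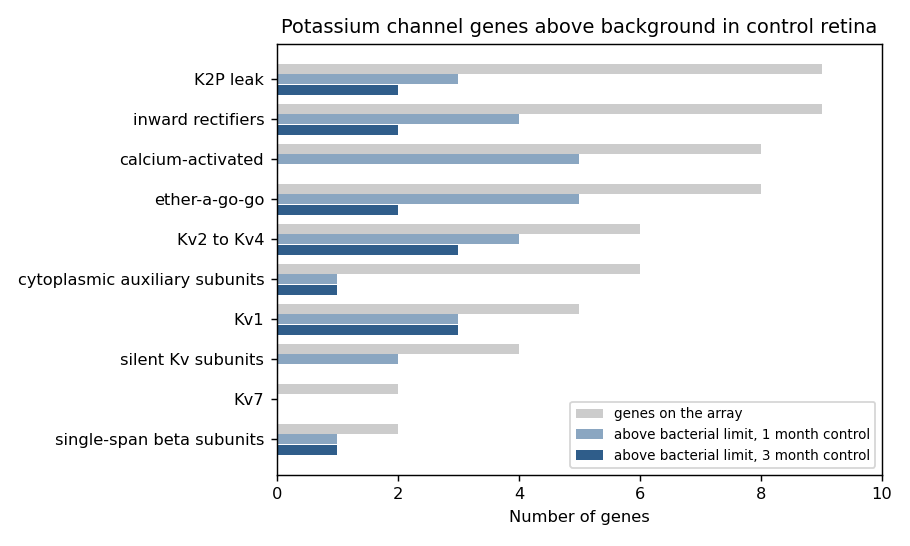
Number of genes (horizontal axis) in each structural class of potassium channel genes: on the array (grey), and with at least 1 probe above the bacterial limit on at least 5 of the 6 control arrays at 1 month (light blue) and at 3 months (dark blue). The calcium-activated class has 5 genes above the limit at 1 month and 0 at 3 months, while the Kv1 class has 3 at both.

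Kcne2, a single-span beta subunit that assembles with several pore-forming channels, had the lowest log2 fold change at 3 months among the 49 tested probes. With no filter on dim probes, the untested probes of Kcna3, Kcnj1 and Kcnip3 and a second probe of Kcnma1 had lower fitted values. Its scaled intensity ran from 2.11 to 4.19 (median 2.76) in the 3 month controls and from 1.2 to 2.44 (median 1.49) in the STZ group. All but 1 of the STZ arrays were below every control array. Kcne2 fell 1.75-fold, a log2 fold change of -0.81 (SE 0.18, limma adjusted p = 0.00133, n = 6 and 6). Over all tested probes the change had a median of 0.44 on the log2 scale, and relative to it Kcne2 was at -1.25. The probe was above the bacterial limit on 6 of 6 control arrays and 3 of 6 STZ arrays. With array spread as a covariate the log2 fold change was -1.07 but no longer passed (limma adjusted p = 0.358). Under that covariate no probe on the array passed at 3 months, while 3 of the 49 member probes had an unadjusted limma p under 0.05.

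At 1 month, Kcne2 ran from 3.77 to 6.68 (median 3.99) in the controls and from 2.50 to 3.71 (median 3.02) in the STZ group. Every STZ array was below every control array, which held for 1 member, while the groups did not overlap in either direction for 0.545% of all tested probes. The log2 fold change was -0.53 (SE 0.18), and it did not pass after adjustment (limma adjusted p = 0.957, unadjusted p = 0.00702). The difference between the 3 month and the 1 month change was -0.28 (SE 0.26, limma adjusted p = 0.397), so the changes at the 2 times were not shown to differ. Markers of the retinal pigment epithelium were measured by 4 probes, for Rpe65, Ttr and Lrat. Their summed scaled intensity ran from 1.71 to 9.71 in the 1 month controls, 1.63 to 3.17 in the 1 month STZ group, 3.77 to 14.8 in the 3 month controls and 3.26 to 98.4 in the 3 month STZ group. The upper end of the last range came from Ttr alone, at 96.4 on the 3 month STZ array 1. Lrat was the lowest of them, at no more than 0.251 on the 1 month control arrays. Of the 3 tested probes, 1 of the 2 for Rpe65 was lower at 3 months (log2 fold change -0.83, limma adjusted p = 0.0111), and the other 2 did not pass. Their part in the result for Kcne2 was not tested.

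**Figure D2:**
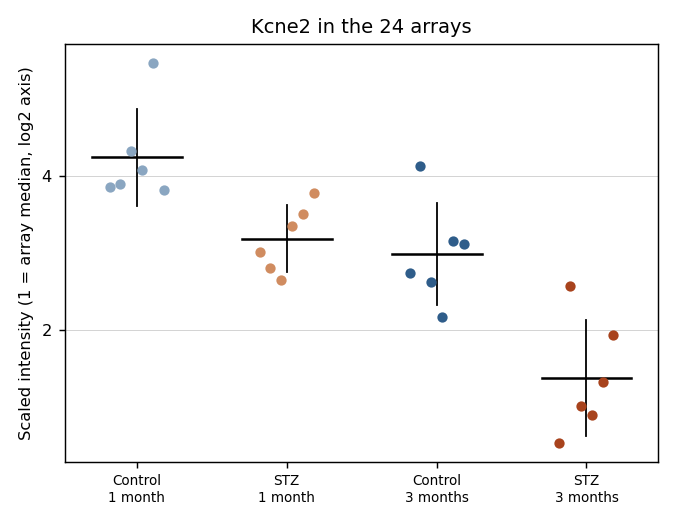
Scaled intensity of Kcne2 (vertical log2 axis, 1 is the array median) on each of the 6 arrays of the 4 groups; the horizontal bar is the mean of the log2 values and the vertical line ± 1 SD. At 1 month all STZ arrays (2.50 to 3.71) lie below all control arrays (3.77 to 6.68), and at 3 months the STZ arrays run from 1.2 to 2.44 against 2.11 to 4.19.

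At 3 months, 21 of the 49 tested member probes were called (18 higher and 3 lower in STZ, limma). Over all tested probes the share called was 54.1%, with 50.5% higher and 3.55% lower. The members' share was 42.9%, below that background. The median log2 fold change was 0.29 for the members and 0.44 for all tested probes. Of the 18 higher probes, 17 lay above this median of all probes, the exception being Kcnk3. The STZ and control groups did not overlap for 3 members that were higher and 2 that were lower, while this held for 9.49% and 0.681% of all tested probes (10.2% in either direction). Among the 25 member probes with a median over the 24 arrays above the median bacterial limit, 14 were called higher and only Kcne2 lower, against 64.9% and 0.559% of all probes that pass this filter (65.5% in either direction). With no filter on dim probes, 20 of the 78 probes were called higher and 12 lower, against 32.1% and 14.2% of all probes (46.3% in either direction). By the unequal-variance test of the study's methods, at p under 0.01, 9 of 49 were called against 16.9% of all tested probes.

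The higher probes fell into sets by their level. On 9 of them, both 3 month groups were above the bacterial limit on at least 5 of 6 arrays, and these were probes of Kcna1, Kcna2, Kcna5, Kcnc1, Kcnh4, Kcnh6, Kcnj5, Kcnk1 and Kcnk3. On 4 more, a second probe of Kcnj5 and those of Kcnh3, Kcnh8 and Kcnj11, no control array exceeded the limit but some STZ arrays did. On 5 higher probes (Kcnb2, Kcnh5, Kcnj6, Kcns3 and Kcnv1) and on Kcnab2, which was lower, no 3 month array of either group exceeded it, so their fitted 3 month changes, which the plot of all tested probes shows as open circles, are not read as sizes. When the 24 arrays were quantile normalized, which makes their spreads equal, 22 member probes were called (18 higher and 4 lower) against 31.5% of all tested probes (24.6% higher and 6.92% lower). Only 13 of the calls were shared by the 2 scalings. Of the 9 brighter probes, Kcnh4 and Kcnj5 kept their call, and the other 7 lost it.

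**Figure D3:**
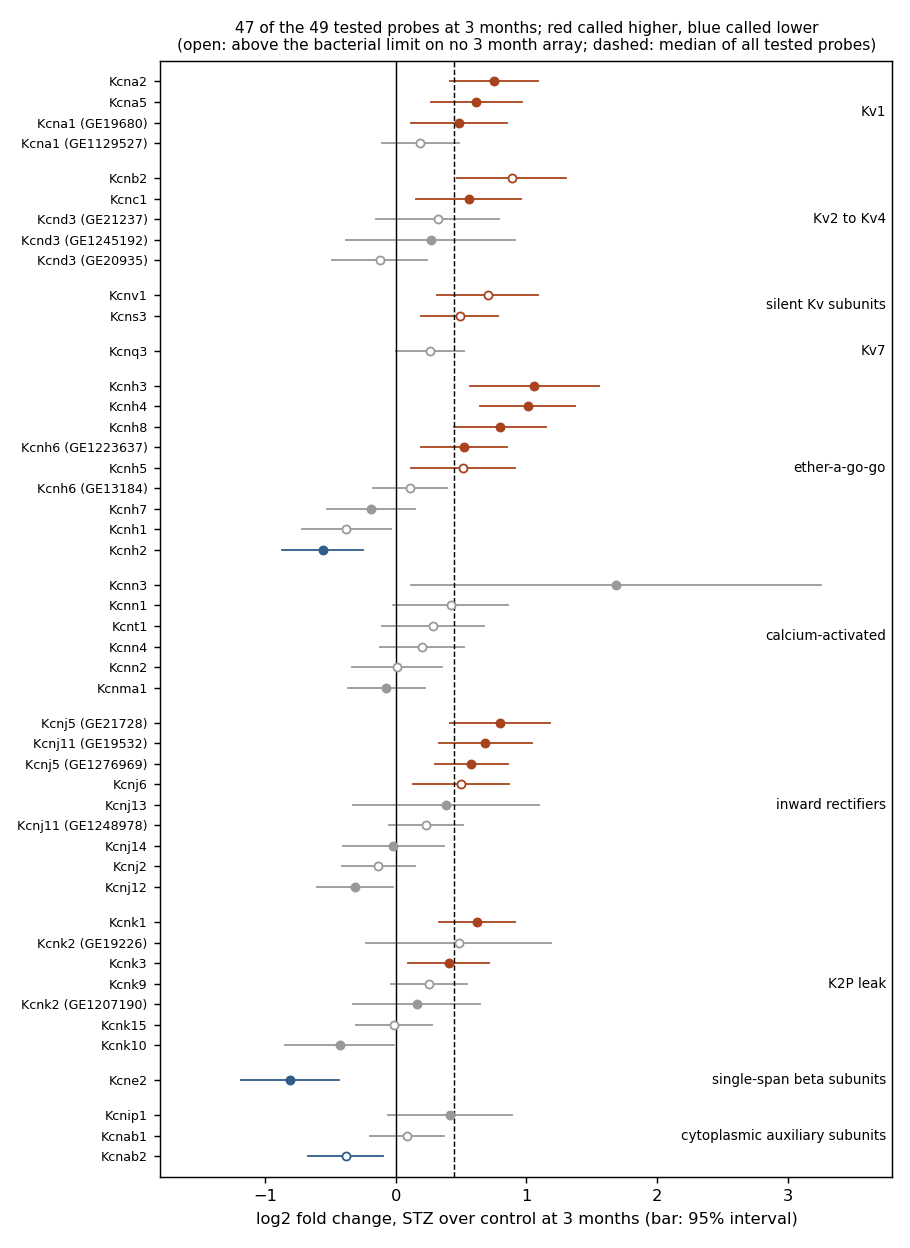
The log2 fold change of STZ over control at 3 months (horizontal axis; bars are 95% intervals of the limma fit, n = 6 and 6) for 47 of the 49 tested probes by structural class. Red is called higher, blue called lower and grey not called, open circles mark the 22 probes above the bacterial limit on no 3 month array, and the dashed line is the median of all tested probes (0.44); Kcne2 is lowest at -0.81.

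The ether-a-go-go class, of which all 8 genes were tested, held both higher and lower calls. The class has 3 branches: the Elk channels (Kcnh3, Kcnh4 and Kcnh8), which carry slow outward currents near threshold, the Erg channels (Kcnh2, Kcnh6 and Kcnh7), whose currents repolarise heart and neurons, and the Eag channels (Kcnh1 and Kcnh5). All 3 Elk genes were called higher at 3 months, as were 50.5% of all tested probes. This grouping within the class was noticed after the values were seen.

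Kcnh4 ran from 1.76 to 4.21 (median 3.03) in the 3 month controls and from 5.25 to 6.65 (median 5.81) in the STZ group. The groups did not overlap, and every array was above the bacterial limit. Kcnh4 was 2.01-fold higher in STZ, with a log2 fold change of 1.01 (SE 0.18, limma adjusted p = 0.000248), or 0.57 above the median of all probes. It was 0.56 under quantile normalization (limma adjusted p = 0.00905).

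Kcnh3 ran from 0.484 to 1.53 (median 0.780) in the 3 month controls and from 1.36 to 1.98 (median 1.77) in STZ. The highest control array overlapped the STZ range. The fitted log2 fold change of Kcnh3 was 1.06 (limma adjusted p = 0.00142). Since no control array exceeded the bacterial limit, its change is read as a bound, at least 1.26-fold higher, which was not itself tested. The second probe of Kcnh3 did not reach the limit for testing.

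Kcnh8 ran from 0.706 to 1.67 (median 0.933) in the 3 month controls and from 1.42 to 2.08 (median 1.68) in STZ. Here too 1 control array lay inside the STZ range and no control array exceeded the bacterial limit. Kcnh8 had a fitted log2 fold change of 0.80 (limma adjusted p = 0.000915). By the bound, which was not itself tested, Kcnh8 was at least 1.26-fold higher. At 1 month it had run from 4.09 to 5.97 in the controls and from 4.62 to 5.58 in STZ, a log2 fold change of -0.03 (SE 0.17).

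In the other branches, Kcnh6 was 1.44-fold higher by its brighter probe (limma adjusted p = 0.00990), which read 2.28 to 4.51 in the controls and 4.49 to 5.85 in STZ. Its dimmer probe was at a log2 fold change of 0.11 (SE 0.14) and did not pass, and the brighter one had a log2 fold change of 0.03 under quantile normalization, where it did not pass. Kcnh5 was called higher at levels of 0.148 to 0.542, all below the bacterial limit. Kcnh2, the heart's Erg channel, was lower, with 0.946 to 1.86 (median 1.17) in the controls and 0.722 to 1.02 (median 0.828) in STZ. Kcnh2 exceeded the bacterial limit on 3 control arrays and on no STZ array, and its log2 fold change was -0.56 (SE 0.15, limma adjusted p = 0.00444) and -0.85 under quantile normalization (limma adjusted p = 0.00145). No fold above 1 remains when its STZ arrays are set at the bacterial limit. Kcnh1 did not overlap between the groups either, with 0.684 to 0.889 in the controls and 0.551 to 0.643 in STZ, all below the bacterial limit, and was not called (limma adjusted p = 0.0566). It was called lower by the methods' test, with separate models of the time points, with array weights, after subtraction of each array's 5th percentile, with array brightness as a covariate and without the 1 month STZ array 1. Kcnh7 did not pass (log2 fold change -0.19, SE 0.16, and -0.24 to -0.05 with single arrays left out).

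**Figure D4:**
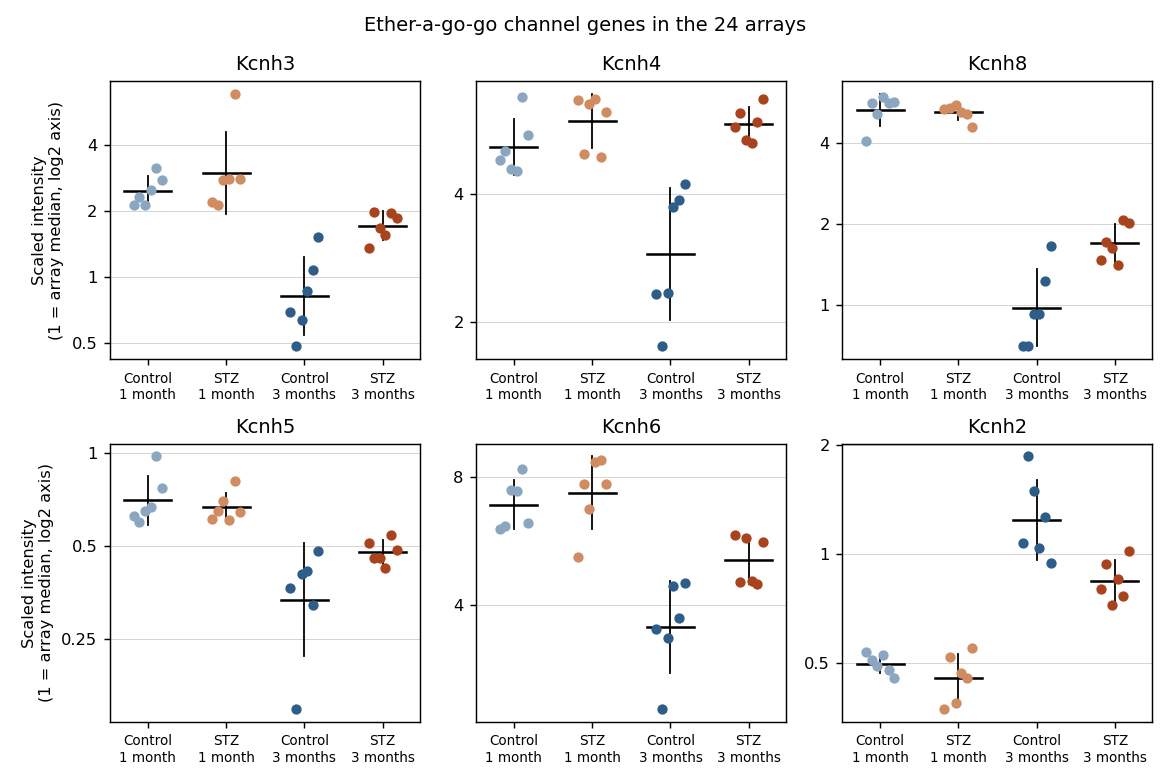
Scaled intensity (vertical log2 axis, 1 is the array median) of 6 ether-a-go-go genes on the 6 arrays of each group; the horizontal bar is the mean of the log2 values and the vertical line ± 1 SD. Kcnh3, Kcnh4, Kcnh8, Kcnh5 and Kcnh6 are higher in STZ than in control at 3 months and Kcnh2 is lower, while at 1 month none of the 6 was called.

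Among the inward rectifiers, Kcnj5, a subunit of the channels opened by G proteins, was called higher with both of its probes. The brighter probe ran from 0.846 to 2.99 (median 1.58) in the 3 month controls and from 2.25 to 3.10 (median 2.73) in STZ, with a single control array inside the STZ range. It was 1.74-fold higher (log2 fold change 0.80, SE 0.19, limma adjusted p = 0.00169), and 0.59 on the log2 scale under quantile normalization (limma adjusted p = 0.0283). The dimmer probe had a fitted log2 fold change of 0.58 (limma adjusted p = 0.00188). It exceeded the bacterial limit on no 3 month control array and on only 2 of 6 STZ arrays. With the control values raised to that limit the fold was 1.04, which is not read as a size. Kcnj6, another subunit opened by G proteins, was called higher with all values below the bacterial limit (0.414 to 1.18). That call was lost without the 3 month control array 2 or 3, or the 3 month STZ array 3 or 5. Kcnj11, the pore of the ATP-sensitive channel, was called with 1 of its 2 tested probes (limma adjusted p = 0.00305), where the STZ level was under the bacterial limit on 5 of 6 arrays. The other probe was at a log2 fold change of 0.23 (SE 0.14) and did not pass. Kcnj14 was at -0.02 (SE 0.19) and Kcnj12 at -0.31 (SE 0.14, limma adjusted p = 0.0648), neither called, although both were called lower under quantile normalization, at -0.66 and -0.41.

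The 250 bases before the annotated starts of Kcnh4, Kcnh8 and Kcnj5 are given here. These genes were chosen since they were called higher at 3 months under both scalings and in the difference between the time points. In that difference under quantile normalization, Kcnh4 (limma adjusted p = 0.294) and the brighter Kcnj5 probe (0.166) were not called. Kcnh8 and the dimmer Kcnj5 probe were called there, but no 3 month control array exceeded the bacterial limit on either. Kcns3 was called at 3 months and in the difference under both scalings. It is left out, since its 3 month levels were all below the bacterial limit. The sequences are from RefSeq on the GRCr8 build and lie at chr10:86188477-86188726 on the minus strand (Kcnh4), chr9:5742433-5742682 on the plus strand (Kcnh8) and chr8:39011097-39011346 on the minus strand (Kcnj5). They are written 5′ to 3′ along the gene, in lower case with motif matches in capitals.
Kcnh4: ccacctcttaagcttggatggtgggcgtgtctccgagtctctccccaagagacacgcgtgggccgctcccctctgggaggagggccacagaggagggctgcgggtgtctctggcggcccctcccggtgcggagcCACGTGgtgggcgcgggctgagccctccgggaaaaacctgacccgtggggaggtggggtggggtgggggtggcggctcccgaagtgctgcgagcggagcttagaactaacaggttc
Kcnh8: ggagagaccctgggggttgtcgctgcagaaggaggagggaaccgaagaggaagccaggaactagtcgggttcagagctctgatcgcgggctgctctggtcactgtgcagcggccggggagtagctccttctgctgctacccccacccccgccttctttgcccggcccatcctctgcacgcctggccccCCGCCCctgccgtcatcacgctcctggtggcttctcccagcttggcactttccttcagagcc
Kcnj5: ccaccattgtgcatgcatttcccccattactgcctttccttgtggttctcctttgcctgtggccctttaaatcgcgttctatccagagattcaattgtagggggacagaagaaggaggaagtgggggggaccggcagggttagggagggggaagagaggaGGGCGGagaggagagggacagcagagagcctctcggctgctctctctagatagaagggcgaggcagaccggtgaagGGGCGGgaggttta

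The capitals mark matches on either strand to the GC box GGGCGG, bound by Sp1, and the E-box CACGTG, bound by basic helix-loop-helix factors. The CRX core TAATCC, a photoreceptor motif, and the cAMP response element TGACGTCA were searched as well and had no match in the 3 windows. Kcnh8 held 1 GC box, Kcnj5 held 2 and Kcnh4 held the E-box, so no motif was common to the 3. Over 27457 RefSeq windows of the same length, 32.4% held a GC box, 5.79% the E-box, 6.33% the CRX core and 1.70% the cAMP response element. Promoter windows were found for 38 of the member genes, and 19 of those held a GC box. G and C made up 68.8% of the bases for Kcnh4, 65.6% for Kcnh8 and 57.2% for Kcnj5, with a median of 52.0% over all windows.

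In the Kv1 class, whose channels limit firing at axons and terminals, all 3 tested genes were called higher at 3 months with at least 1 probe, 3 of 4 probes in all, against 50.5% of all tested probes. Kcna2 ran from 1.25 to 2.95 (median 2.21) in the controls and from 3.03 to 4.14 (median 3.64) in STZ with no overlap, and was 1.68-fold higher (log2 fold change 0.75, SE 0.16, limma adjusted p = 0.00111). Kcna5 was 1.53-fold higher (limma adjusted p = 0.00478), with 1.92 to 5.17 in the controls and 4.06 to 6.80 in STZ. Kcna1 was 1.4-fold higher by its brighter probe (limma adjusted p = 0.0262), and not called by the other at 0.19 (SE 0.14). Under quantile normalization these 3 changes were 0.37, 0.16 and 0.10 on the log2 scale, and none of these 3 probes was called, although the dimmer probe of Kcna1 was. Without the 3 month control array 2, Kcna1 was at 0.30 and not called. Nor was it called without the 3 month STZ array 2 or 6 (limma adjusted p = 0.0757 and 0.0648).

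In the Kv2 to Kv4 class, 2 of 4 tested genes were called higher, with 2 of 7 probes, against the same 50.5%. Kcnc1 was 1.47-fold higher (limma adjusted p = 0.0205), with 5.58 to 15.1 in the controls and 9.61 to 16.9 in STZ. Its direction turned under quantile normalization, at -0.06, and it was not called without the 3 month control array 2. Kcnb2, a delayed rectifier, ran from 0.279 to 1.03 (median 0.754) in the controls and from 1.10 to 1.32 (median 1.16) in STZ. The groups did not overlap, but all values were below the bacterial limit (limma adjusted p = 0.00147). The 3 probes of Kcnd3, a subunit of the transient A-type current, ran from -0.12 to 0.32 and none was called, though 1 of them was under quantile normalization (0.76, limma adjusted p = 0.0360). The silent subunits Kcnv1 and Kcns3, which form no channel alone, were both called higher, with STZ levels of 0.783 to 0.955 and 0.670 to 1.10 that lay below the bacterial limit. Kcnq3, a subunit of the M-current channel and the tested member of the Kv7 class, was at 0.26 (SE 0.13) and did not pass, while under quantile normalization it was at 0.39 and called (limma adjusted p = 0.0292).

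Of the K2P leak channels, 2 of 6 tested genes were called, both higher, with 2 of 7 probes against 50.5% of all tested probes. Kcnk1 ran from 4.51 to 7.39 (median 5.12) in the 3 month controls and from 7.33 to 8.77 (median 8.38) in STZ. The ranges met only at 7.33 and 7.39, and the change was 1.54-fold (log2 fold change 0.62, SE 0.14, limma adjusted p = 0.00142). Under quantile normalization Kcnk1 was at 0.04 and not called. Kcnk3, an acid-sensitive leak channel, was 1.32-fold higher (limma adjusted p = 0.0262). It lost its call under quantile normalization, without the 3 month control array 2 and without the 3 month STZ array 2 or 5. Kcnk10 was at -0.43 (SE 0.20) and did not pass. With single arrays left out it ran from -0.53 to -0.17. It was called lower without the 3 month control array 5 or 6 (limma adjusted p = 0.0358 and 0.0269). None of the 6 tested calcium-activated genes was called, although Kcnn1, Kcnn3 and Kcnt1 were called higher under quantile normalization. The largest value there, 1.69 for the small-conductance channel Kcnn3 (SE 0.77, limma adjusted p = 0.0631), came from a single spot at 97.8 on the 3 month STZ array 1, while the other 5 STZ arrays read 0.480 to 0.770. Without that array it was 0.45 and still not called, and without the 3 month STZ array 2, 4, 5 or 6, which leaves the spot in, it was 1.91 to 1.99 and called, while with the replicate number as a block Kcnn3 at 3 months was called (limma adjusted p = 0.0392). Kcnma1, the large-conductance channel, was at -0.07 (SE 0.14).

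Of the cytoplasmic subunits, Kcnab2, a beta subunit of the Kv1 channels, was called lower with no overlap between 0.622 to 1.08 in the controls and 0.492 to 0.606 in STZ, all below the bacterial limit (limma adjusted p = 0.0252). It was not called under quantile normalization (limma adjusted p = 0.238) or without the 3 month control array 2 (0.0717). Kcnip1 was at 0.41 (SE 0.23) and did not pass. Of 7 genes with several tested probes, Kcnj5 had every probe called, Kcna1, Kcnh6 and Kcnj11 had 1 of 2, and the other 3, Kcnd3 and Kcnk2 among them, had none. No gene had tested probes called in opposite directions, but with no filter on dim probes a second probe of Kcnb2 was called lower (limma adjusted p = 0.0456).

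**Figure D5:**
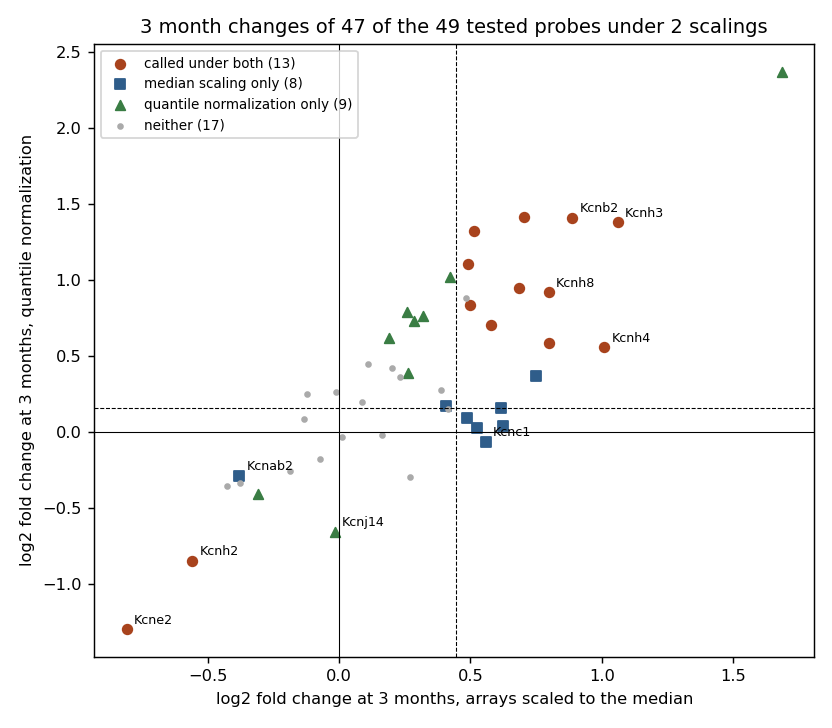
Log2 fold change of STZ over control at 3 months for 47 of the 49 tested probes, with arrays scaled to their medians (horizontal axis) and quantile normalized (vertical axis); dashed lines are the medians of all tested probes (0.44 and 0.16). The 13 probes called under both include Kcne2 and Kcnh2 among the lower and Kcnh3, Kcnh4 and Kcnh8 among the higher, while Kcnc1 turns from 0.56 to -0.06.

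The size of a change at 3 months moved with the level of a probe on arrays not used for it. Among all tested probes, the median log2 fold change was 0.00 for those with a geometric mean below 1 in the 1 month controls, 0.35 for those from 1 to 2, 0.52 from 2 to 4 and 0.60 from 4 upward. The member probes in these ranges had medians of -0.13 (12 probes), 0.36 (20), 0.45 (4) and 0.56 (13). Across probes, which are not independent and share their arrays, the correlation of the 1 month control level with the 3 month change was 0.28 for the 49 members (Spearman's 0.44) and 0.51 for all tested probes (Spearman's 0.55). In the highest range, a fall was found for 1.47% of all tested probes. Kcne2, at 4.36 in the 1 month controls, was in that range, as was Kcnj14, whose change was -0.02. Kcnh2, Kcnab2 and Kcnh1 were all in the lowest range, where 49.8% of all tested probes had a negative change. The part of the array spread in these changes was not tested beyond the values above.

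At 1 month no member was called by limma, and 5 of the 49 probes had an unadjusted p under 0.05. Over all tested probes 0.00908% were called and 4.21% had an unadjusted p under 0.05. By the methods' test at p under 0.01, Kcne2 alone was called, against 1.19% of all tested probes. The median log2 fold change was -0.0028 for the members and 0.01 for all probes. After Kcne2, the smallest p was that of Kcnj13, an inward rectifier known from the pigment epithelium, which ran from 2.68 to 4.2 in the controls and from 0.386 to 3.57 in STZ. Its log2 fold change was -0.94 (SE 0.35, limma unadjusted p = 0.0109) and did not pass after adjustment, and it was -0.52 without the lowest STZ array. Kcnk3 was at 0.35 (SE 0.15, limma unadjusted p = 0.0273), Kcnj12 at -0.30 (SE 0.14, limma unadjusted p = 0.0409) and Kcnk10 at 0.34 (SE 0.20, limma unadjusted p = 0.111). The dimmer probe of Kcnj5 was at -0.29 (SE 0.14, limma unadjusted p = 0.0407), and the brighter one at -0.02 (SE 0.19).

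The 3 month change was called more positive than the 1 month change for 6 member probes and more negative for none, while 15.5% of all tested probes were called (14.8% and 0.731%). The 6 were probes of Kcna2, Kcnh4, Kcnh8, Kcns3 and Kcnj5 (both). Kcna2, Kcnh4 and the brighter Kcnj5 probe were above the bacterial limit on at least 5 of 6 arrays of both 3 month groups. Their differences were 0.69 for Kcna2 (SE 0.23), 0.81 for Kcnh4 (SE 0.25) and 0.82 for Kcnj5 (SE 0.26) on the log2 scale. Under quantile normalization they were 0.31, 0.37 and 0.61, and none was called (limma adjusted p = 0.437, 0.294 and 0.166). The other 3 kept their call there, but for them no 3 month control array exceeded the bacterial limit. The count of 6 varied from 1 to 19 with single arrays left out. Without the 3 month control array 1 or 3, or the 3 month STZ array 5 or 6, only a probe of Kcnj5 was left, when 3.45% to 6.43% of all tested probes were called. Without the 3 month control array 6 there were 19, or 38.8% of the members, against 41.9% of all tested probes.

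Other genes of excitability moved in the same range at 3 months. Of the voltage-gated sodium channel probes (Scn), 6 of 9 were called higher and none lower (median log2 fold change 0.46). Of the voltage-gated calcium channel probes (Cacn) 6 of 13 were higher and none lower (median 0.45), and of the probes for known partners of potassium channels 3 of 6 were higher (median 0.45). Of the Slc12a cotransporter probes, 3 of 5 were higher and 1 lower (median 0.57). Hcn channels, which carry an inward current on hyperpolarisation, had 1 of 2 probes higher (median 0.71). Over all tested probes the median was 0.44 and 50.5% were called higher, and the differences between these lists and the Kcn median of 0.29 were not tested. At 3 months no marker probe was called higher for pigment epithelium (3 tested), smooth muscle and pericytes (2) or erythrocytes (1). Of the 4 rod probes, 1 was called higher. Some markers of other cell types were higher in STZ at 3 months. They include the lens genes Lenep (log2 fold change 2.72) and Lgsn (2.20), 2 of 3 tested lens probes, the glial Vim (1.53) and Gfap (1.29), among 3 of 4 tested probes for Mueller glia, and Aldh3a1 of the cornea (1.02). Their part in the changes of the potassium channel genes was not tested.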

How the data were processed

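Total RNA of the retinas was amplified to biotin-labelled cRNA and hybridised to 1-colour CodeLink rat whole genome arrays. The deposited intensity values were made by the authors with GenePix and the CodeLink software: defective spots were excluded, background was subtracted and, for a second deposited intensity column, values were divided by a constant near the array median. The deposited files hold no spot quality flags.

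From the background-subtracted intensity, each of the 24 arrays was divided by the median of its 33849 rat probes, floored at 0.01 and taken to log2. Limma 3.58.1 in R 4.3.3 was fitted to the 4 groups together for 22025 probes, with Benjamini-Hochberg adjustment. On simulated data with 200 of 22025 probes changed by a log2 of 1 at 3 months, 166 were called, with 7 false calls. On the real arrays 54.1% of tested probes were called at 3 months, so these counts give no error rate for those calls. The number of arrays, 6 per group, limits the precision. Accessions were matched to symbols through a RefSeq gene table (4674 of 5469 probes with such accessions). A gene with several tested probes was represented by the brightest.

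The members, gene lists and tests were chosen with earlier results of these data known. The named genes were Kcne2, the 10 largest called changes at 3 months, genes called lower or in the difference between times (up to 10 each), the 5 smallest p at 1 month, and the highest and lowest tested gene of each class. Kcna5, Kcnc1, Kcnh1, Kcnh5, Kcnh6, Kcnh7, Kcnj6 and Kcnj14, and genes named for detection, were added after their values were seen. Some genes are not reported here. Alternatives covered scaling, filter, floor, test, covariates, the replicate number and single arrays. A bound on a fold change used, on each array, the higher of the bacterial limit and the probe's own value in the dimmer group. No value was used from columns of other series or from comparisons made by the authors.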

Additional observations from a re-analysis of the deposited data

Results flagged for a closer look

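Over the probes of 30 genes named in the text, 1 array stood far from the other 5 of its group (its gap to the nearest array, over the group's range, above Dixon's critical value) in 18 of 120 groups, where chance gives about 1 in 20. The 3 month control array 2 accounted for 6 of these, with scaled intensities of 1.28 for Kcna1, 1.08 for Kcnab2, 0.148 for Kcnh5, 1.72 for Kcnh7, 0.817 for Kcnip1 and 1.93 for Kcnk10. The 1 month control array 5 accounted for 5, at 23.3 for Kcnc1, 6.68 for Kcne2, 3.44 for Kcnip1, 1.89 for Kcnk3 and 0.990 for Kcns3. The 3 month STZ array 1 read 97.8 for Kcnn3 and 0.730 for Kcnj6, and the 3 month STZ array 4 read 9.61 for Kcnc1 and 0.728 for Kcnk10. In the 1 month STZ group, array 5 read 6.82 for Kcnh3, array 2 read 1.11 for Kcnma1 and array 1 read 0.771 for Kcnn3.

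The change in STZ differed between 3 months and 1 month by limma's test of the difference for Kcna2 (0.69 on the log2 scale), Kcnh4 (0.81), Kcnh8 (0.83), Kcns3 (0.69) and both probes of Kcnj5 (0.87 and 0.82). For Kcnh8, Kcns3 and the dimmer Kcnj5 probe (0.87) no 3 month control array exceeded the bacterial limit, so these are fitted values near background and not sizes. Kcna2, Kcnh4 and the brighter Kcnj5 probe (0.82) were not called under quantile normalization.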

How the results depend on the processing

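Kcne2 at 3 months kept its direction under every alternative run, from -0.93 to -0.69 on the log2 scale when single arrays were left out, and lost its call only with array spread as a covariate (-1.07). Kcne2 at 1 month was between -0.59 and -0.41 without single arrays, and passed only by the methods' unequal-variance test at an unadjusted p under 0.01 (-0.53). The 21 calls at 3 months became 32 of 78 probes with no filter on dim probes, 9 by the methods' test at p under 0.01, 5 by that test after Benjamini-Hochberg adjustment, 10 with array brightness as a covariate and 0 with array spread as a covariate, where 3 probes had an unadjusted limma p under 0.05. With single arrays left out there were 15 (without the 3 month control array 2) to 24. Without the 3 month control array 2 and the 3 month STZ array 1, an alternative chosen after seeing the data, 14 were called, all of them among the 21, Kcne2 included. At 1 month 0 probes were called by limma, 0 with any array left out, 1 by the methods' test at p under 0.01 (Kcne2) and 1 with array weights (Kcnk3). For the difference between the times the count of 6 became 2 with quantile normalization within each time point and 19 with array weights. It was 0 with array spread and 2 with array brightness as covariates, and 2 without the 2 arrays named above. Without single arrays it ran from 1 to 19. Quantile normalization over the 24 arrays also gave 6, but only 3 were shared: Kcnh8, Kcns3 and the dimmer Kcnj5 probe. The replicate numbers do not pair the samples: same-numbered arrays of a time point correlated between -0.24 and 0.25 in their deviations, and 3 of 12 correlated best with their own number. With the replicate block, 3 probes were called for the difference, 21 at 3 months (Kcnn3 in place of Kcnk3) and 0 at 1 month. Genes above the limit of 0.554 in the 3 month controls numbered 44, 29 with each array's own 35th percentile, 14 with the bacterial limit and 44 to 47 without single arrays, and in the 1 month controls 38 throughout the single-array series. The sign turned for Kcnc1 at 3 months (-0.062 and -0.063 under both quantile normalizations), Kcnj13 at 3 months (-0.26 with array spread), Kcnma1 (0.013 with array spread) and Kcnj14 (-0.12 to 0.16 without single arrays). The cause of these shifts was not tested. The quality flags planned as a detection limit could not be used, since the files analysed here hold none. Signal over background limits all values near or under the bacterial limit.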
